A study of Mus musculus with 4 samples.

Results

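The carbonic anhydrases form a family of zinc enzymes and related proteins, and 8 of their genes are described here: Car1, Car2, Car3, Car4, Car5a, Car8, Car13 and Car14. The members were all probe sets of the array table that name 1 of these symbols and no other gene, which gave 16 of the 45037 probe sets. RNA was measured in 4 livers of mice on a C57BL/6 background, taken 4 weeks after birth, on the Affymetrix GeneChip Mouse Genome 430 2.0 array, with 1 array per sample. The 2 Cnot3KO livers lacked Cnot3 in the cells in which Cre recombinase was driven by the Albumin promoter (Alb-Cre). This promoter is active in hepatocytes and, as the study describes, in embryonic hepatoblasts, which become hepatocytes or cholangiocytes. Which other cells of these livers kept the gene was not measured on these arrays. The 2 Control livers are labelled wild type, and the labels mention neither a floxed allele nor Cre for them. The study's methods allow as controls mice with floxed Cnot3 alleles and no Cre, or with Alb-Cre and at least 1 intact allele, and which of these the arrays hold is not given. No treatment was given to either group, and the labels do not state sex. Cnot3 is part of CCR4-NOT, the main deadenylase of mRNA, and the comparison addresses how carbonic anhydrase RNA differed between livers with and without it. Nothing in the labels says whether an array holds RNA of 1 animal, so the p-values measure only the spread between these 4 samples.

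Carbonic anhydrases catalyse the reversible hydration of carbon dioxide to bicarbonate and a proton. In the liver, the mitochondrial enzyme supplies bicarbonate to the first step of the urea cycle and to pyruvate carboxylation, cytosolic forms buffer the hepatocyte, and forms anchored in the plasma membrane face the extracellular space. Some members of the family lack the zinc ligands of the active site and do not hydrate carbon dioxide. Red blood cells are rich in the cytosolic forms, and Car3 is abundant in liver, fat and skeletal muscle.

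A promoter window is shown for Car5a, because it is the only called gene of the family with an entry in the RefSeq-derived table used here. That table holds windows for 3 of the 8 genes (Car4, Car5a and Car14). The window runs from 250 bases before to 50 bases after the transcription start on the minus strand of GRCm38.p6, at chr8:121944863-121945162. Capitals mark the matches among 5 motifs that were searched on both strands, and the motifs were chosen after the sequence had been seen.
Car5a: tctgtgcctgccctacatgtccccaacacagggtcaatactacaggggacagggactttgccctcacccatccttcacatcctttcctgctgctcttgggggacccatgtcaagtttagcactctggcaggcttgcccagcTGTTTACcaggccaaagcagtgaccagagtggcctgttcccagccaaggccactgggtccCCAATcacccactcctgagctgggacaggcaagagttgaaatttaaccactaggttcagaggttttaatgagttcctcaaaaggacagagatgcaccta
The forkhead core TGTTTAC begins 109 bases before the start and was found in 3.65% of the 32851 windows of the table. The CCAAT box begins 49 bases before the start, and 37.4% of the windows hold those letters. The TATA box TATAAA (13.6% of windows), the GATA site AGATAA (11.2%) and the HNF1 half-site GTTAAT (7.1%) had no match in the Car5a window. The matches do not overlap each other, and a match of letters is a description only. The Car14 window held none of the 5 motifs, and the Car4 window held TATAAA only, 42 bases after its start.

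Values are log2 of the deposited RMA intensities, and a difference is Cnot3KO minus Control, with its standard error (SE) from limma. A probe set was called where its adjusted p, by the Benjamini-Hochberg method over 38405 probe sets, was under 0.05. Those 38405 lay above the 20th percentile of their array on at least 1 array. Of the 16 carbonic anhydrase probe sets, 15 passed this filter, 2 of them only through the Cnot3KO arrays and 1 only through the Control arrays. Probe sets differ in how they bind, so their levels are not set against each other. All 4 livers expressed hepatocyte genes: albumin (Alb, 1425260_at) was at 13.74 and 13.79 in Cnot3KO livers, against 13.84 and 13.73 in Control livers. Cnot3 itself (1435965_at) was at 5.15 and 5.30 in Cnot3KO livers, against 5.99 and 6.04 in Control livers, a difference of −0.79 ± 0.16 (adjusted p = 0.0372), a call that was lost when any single array was left out, and its other probe set, 1441465_at, differed by −0.40 (adjusted p = 0.218). Whether these probe sets lie in the deleted part of the gene is not known here. The Y-linked gene Eif2s3y (1417210_at) read 7.34 and 7.57 in Cnot3KO livers and 7.90 and 7.73 in Control livers, and Xist (1436936_s_at) read 2.14 and 1.99 in Cnot3KO livers and 2.05 and 2.33 in Control livers. On all 4 arrays, then, the Y-linked gene was expressed and Xist was low, the pattern of male tissue. Arrays correlated at r = 0.989 within Cnot3KO, at 0.981 within Control and at 0.937 to 0.948 between the groups, across probe sets.

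Car1, Car3, Car5a and Car8 were lower in Cnot3KO livers and Car13 was higher, while Car2, Car4 and Car14 had no called probe set. By probe set, 7 of the 15 that passed the filter were called lower, where 4.78% of all probe sets tested were called lower, and 2 were called higher, where 8.48% were. The 7 lower calls came from 4 genes and the 2 higher calls from 1 gene, so they are not separate pieces of evidence. The Cnot3KO and Control values did not overlap for 9 probe sets that were lower in Cnot3KO (35.9% of all tested) and for 3 that were higher (26.9% of all tested), and they overlapped for the other 3. Of the higher ones without overlap, Car13 1421308_at (called) and Car4 1448949_at (not called) passed the filter only through the Cnot3KO arrays. Car8 1424958_at, called lower, passed it only through the Control arrays. The median difference of the 15 was −1.79, with a range of −3.81 to 3.41, against a median of −0.08 for all 38405. The plot of values by array shows each probe set with its own spread.

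**Figure D1:**
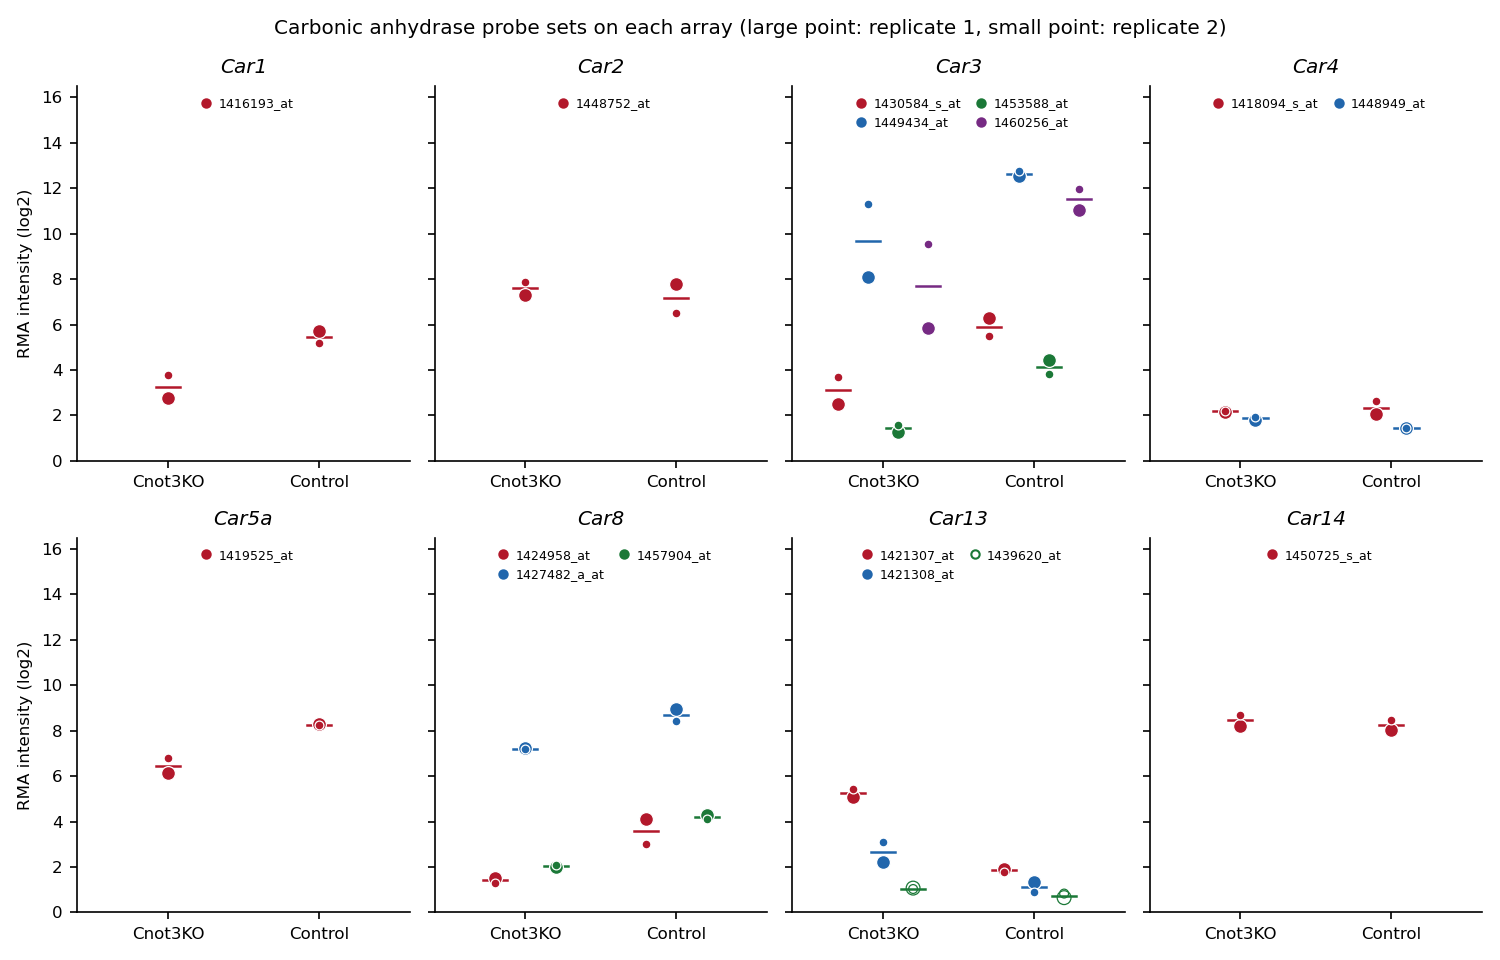
Log2 RMA intensity (vertical axis) of every carbonic anhydrase probe set, in 1 panel per gene, with Cnot3KO arrays left of Control arrays. Large points are replicate 1, small points replicate 2 and lines the group means, and open points are the Car13 probe set that did not pass the filter. Cnot3KO replicates 1 and 2 stand 3.18 apart for Car3 1449434_at, while the Control replicates stand 0.21 apart.

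Car5a, the mitochondrial enzyme, was lower in both Cnot3KO livers. Its probe set 1419525_at read 6.14 and 6.79 in Cnot3KO livers, against 8.28 and 8.25 in Control livers. The groups did not overlap, and the 2 Control arrays were nearly level with each other. The difference was −1.79 ± 0.25 (95% interval −2.43 to −1.16, adjusted p = 0.0148), or 3.47-fold lower in Cnot3KO livers. Without Control replicate 1 the difference was −1.78, and without Control replicate 2 it was −1.81, so the size held but the call was lost in both fits. Without Cnot3KO replicate 1 the difference was −1.47, and without Cnot3KO replicate 2 it was −2.12. There the size moved and the call was kept. The second mitochondrial carbonic anhydrase, Car5b, read 3.21 and 3.48 in Cnot3KO livers and 2.95 and 2.61 in Control livers on 1419705_at, a difference of 0.57 ± 0.20 that was not called (adjusted p = 0.133). Its other probe set, 1447928_at, differed by −0.42 (adjusted p = 0.272), so the 2 Car5b probe sets had opposite signs.

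Enzymes that take up bicarbonate were followed beside Car5a as a list of 10 genes, all measured. The list also includes Hlcs, which attaches biotin to carboxylases and differed by 0.52 (adjusted p = 0.182). Only Pccb, a subunit of the propionyl-CoA carboxylase, was called, and it was lower: 6.34 and 6.49 in Cnot3KO livers, against 7.55 and 8.01 in Control livers (difference −1.37 ± 0.21, adjusted p = 0.0185). Its call needed both Cnot3KO arrays: leaving out replicate 1 gave −1.30 (adjusted p = 0.0794), and leaving out replicate 2 gave −1.44 (adjusted p = 0.0512). With 1 probe set per gene, 4.64% of 16758 genes were called lower and 12.2% higher. Cps1, the urea cycle enzyme that consumes mitochondrial bicarbonate, was at 12.43 and 12.54 in Cnot3KO livers and at 12.29 and 12.48 in Control livers, a difference of 0.10 (adjusted p = 0.718). Pcx, the pyruvate carboxylase, differed by −0.55 (adjusted p = 0.0955). The median difference of the 10 genes was −0.28, against 0.00 over all 16758 genes.

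Car3, a cytosolic isoform with low hydratase activity, was measured by 4 probe sets, and all 4 were below Control in both Cnot3KO livers. Probe set 1449434_at read 8.11 and 11.29 in Cnot3KO livers, against 12.53 and 12.74 in Control livers, which is 277 and 2506 against 5910 and 6819 on the linear scale. Probe set 1460256_at, whose design rests on the same reference transcript, read 5.84 and 9.53 in Cnot3KO livers, against 11.04 and 11.97 in Control livers. On both, Cnot3KO replicate 1 was far below Cnot3KO replicate 2, by 3.18 and by 3.69. The differences were −2.93 ± 0.98 (95% interval −5.40 to −0.46) and −3.81 ± 1.17 (−6.75 to −0.87), and neither was called (adjusted p = 0.114 and 0.0939). Without Cnot3KO replicate 2 they were −4.52 (adjusted p = 0.00211) and −5.66 (adjusted p = 0.00343), and without Cnot3KO replicate 1 they were −1.34 (adjusted p = 0.0532) and −1.97 (adjusted p = 0.0603). Leaving out either Control array gave adjusted p-values of 0.249 and 0.266 for 1449434_at and of 0.192 and 0.259 for 1460256_at.

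The other 2 Car3 probe sets share a different source sequence and gave called differences. Probe set 1430584_s_at read 2.51 and 3.70 in Cnot3KO livers, against 6.29 and 5.51 in Control livers, a difference of −2.80 ± 0.46 (adjusted p = 0.0209). Probe set 1453588_at read 1.27 and 1.59 in Cnot3KO livers, against 4.46 and 3.82 in Control livers, a difference of −2.71 ± 0.27 (adjusted p = 0.00741). Here the Cnot3KO replicates were 1.19 and 0.32 apart, with replicate 2 again the higher, and on 1453588_at only 1 of the 2 Cnot3KO arrays was above the 20th percentile of its array. The call for 1453588_at held when any single array was left out. That for 1430584_s_at needed both Control arrays: leaving out replicate 1 gave −2.41 (adjusted p = 0.0942), and leaving out replicate 2 gave −3.18 (adjusted p = 0.0513).

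Fat and skeletal muscle also express Car3, and none of their measured marker genes was called. The adipocyte list had 5 of its 10 genes measured and none called by limma (0 at an unadjusted p under 0.05), with summed linear values of 256 and 455 in Cnot3KO livers and 186 and 246 in Control livers. Fabp4, a fatty acid binding protein of fat cells and macrophages, read 7.50 and 8.51 in Cnot3KO livers, against 6.84 and 7.42 in Control livers, a difference of 0.87 ± 0.39 (adjusted p = 0.198). Lipe, the hormone-sensitive lipase, differed by 0.45 ± 0.20 (adjusted p = 0.202). Adipoq, which defines fat cells, was below the filter on all 4 arrays, at 1.11 and 1.12 in Cnot3KO livers and 1.39 and 1.30 in Control livers. Lep was below it as well. The skeletal muscle list had 11 of 12 genes measured and none called by limma (1 at an unadjusted p under 0.05), with sums of 73.1 and 76.4 in Cnot3KO livers and 77.9 and 85.7 in Control livers, and Myh4, a muscle myosin, was below the filter. The troponins Tnni2 and Tnnc2 differed by −0.49 (adjusted p = 0.133) and 0.35 (adjusted p = 0.386). The part of fat and muscle cells in the Car3 difference was not tested.

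Car1 is a cytosolic enzyme best known from red blood cells, and it was lower in both Cnot3KO livers. Its probe set 1416193_at read 2.77 and 3.77 in Cnot3KO livers, against 5.72 and 5.17 in Control livers. The groups did not overlap, and the Cnot3KO arrays were 1.00 apart. The difference was −2.17 ± 0.38 (95% interval −3.13 to −1.22, adjusted p = 0.0244), or 4.51-fold lower in Cnot3KO livers. Leaving out Control replicate 1 gave −1.90 (adjusted p = 0.106) and leaving out Control replicate 2 gave −2.45 (adjusted p = 0.06), so neither kept the call.

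Of 26 erythroid markers, 21 were measured, and 2 were called, both lower, where 4.64% of all genes were called lower. The part of erythroid cells in the Car1 difference was not tested. Alas2, the erythroid enzyme of haem synthesis, read 5.37 and 6.35 in Cnot3KO livers, against 8.33 and 8.52 in Control livers (difference −2.57 ± 0.34, adjusted p = 0.0131). Klf1, an erythroid transcription factor, read 3.43 and 3.64 in Cnot3KO livers, against 5.39 and 4.53 in Control livers (difference −1.42 ± 0.31, adjusted p = 0.0416). For Alas2, leaving out Control replicate 1 gave an adjusted p of 0.0636 and leaving out Control replicate 2 gave 0.0569, and Klf1 was called only in the fit without Control replicate 2 among those that left out an array. The summed linear value of the 21 genes was 198 and 253 in Cnot3KO livers, against 628 and 555 in Control livers. Alas2 carried much of this sum: the other 20 genes summed to 156 and 171 in Cnot3KO livers, against 306 and 187 in Control livers. The median difference of the list was −0.30, and 0 to 6 of its genes were called lower when a single array was left out, with 0 without Control replicate 1 and 6 without Control replicate 2. Slc4a1, the red cell anion exchanger that passes bicarbonate across the membrane, read 3.17 and 3.55 in Cnot3KO livers, against 5.87 and 3.48 in Control livers, so it was high on Control replicate 1 alone. Hba-a1, the only globin gene of the list that was measured, read 1.56 and 1.56 in Cnot3KO livers and 1.68 and 1.55 in Control livers. These values lie close to the 20th percentile of each array, so they cannot show whether globin RNA differed. In RNA of whole liver, fewer cells of a type and less RNA per cell cannot be told apart.

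Car2, the widespread cytosolic enzyme with high activity, showed no called difference. Its probe set 1448752_at read 7.31 and 7.89 in Cnot3KO livers, against 7.80 and 6.53 in Control livers. The groups overlapped, and the 2 Control arrays were 1.27 apart. The difference was 0.44 ± 0.45, and its 95% interval of −0.70 to 1.58 leaves room for changes of either sign (adjusted p = 0.55). Without Control replicate 2 the difference was −0.20.

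Car13, a further cytosolic enzyme, was higher in both Cnot3KO livers. Its probe set 1421307_at read 5.08 and 5.43 in Cnot3KO livers, against 1.90 and 1.80 in Control livers. The difference of 3.41 ± 0.19 (95% interval 2.92 to 3.89, adjusted p = 0.00359) is 10.6-fold on the linear scale. Both Control values were close to the 20th percentile of their arrays (1.64 and 1.69), near the lower limit, so the size of this fold is uncertain. The call held when any single array was left out, with differences of 3.23 to 3.58. A second probe set from the same source sequence, 1421308_at, read 2.20 and 3.12 in Cnot3KO livers, against 1.32 and 0.91 in Control livers, where both Control values were under the 20th percentile of their arrays. Its difference was 1.54 ± 0.34 (adjusted p = 0.0443), and 3 of the 4 fits that left out an array lost the call: 1.08 (adjusted p = 0.099) without Cnot3KO replicate 2, 1.75 (adjusted p = 0.108) without Control replicate 1, and 1.34 (adjusted p = 0.141) without Control replicate 2. It was also lost with no filter on low values (adjusted p = 0.0517). The third, 1439620_at, did not pass the filter, at 1.07 and 1.03 in Cnot3KO livers and 0.65 and 0.83 in Control livers.

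Of the cytosolic genes, Car1, Car2, Car3 and Car13 are neighbours in the genome. In the RefSeq annotation of GRCm38.p6 they lie in the order Car13, Car1, Car3 and Car2, with 0 protein-coding genes between any adjacent pair. Of these 4 neighbours, Car13 was called higher, Car1 and Car3 (2 of its 4 probe sets) were called lower and Car2 was not called.

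The membrane-anchored enzymes showed no called difference. Car14, a transmembrane form found on mouse hepatocytes, read 8.21 and 8.69 in Cnot3KO livers, against 8.01 and 8.46 in Control livers, on 1450725_s_at. The groups overlapped, with a difference of 0.22 ± 0.25 (95% interval −0.42 to 0.85, adjusted p = 0.601) that was −0.02 without Cnot3KO replicate 2 and −0.01 without Control replicate 1. Car4, a lipid-anchored form, was near the lower limit on both of its probe sets. Probe set 1418094_s_at read 2.16 and 2.20 in Cnot3KO livers, against 2.07 and 2.62 in Control livers (difference −0.17 ± 0.23, adjusted p = 0.657). Probe set 1448949_at read 1.81 and 1.93 in Cnot3KO livers, against 1.45 and 1.43 in Control livers (difference 0.43 ± 0.16, adjusted p = 0.141), and both Control values were under the 20th percentile. The 2 Car4 probe sets thus had opposite signs, and neither was called.

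Car8, a carbonic anhydrase-related protein without hydratase activity that binds the inositol trisphosphate receptor, was called lower on all 3 of its probe sets. Probe set 1427482_a_at read 7.24 and 7.17 in Cnot3KO livers, against 8.94 and 8.41 in Control livers, a difference of −1.47 ± 0.22 (adjusted p = 0.0176). Probe set 1457904_at read 1.99 and 2.10 in Cnot3KO livers, against 4.27 and 4.10 in Control livers, a difference of −2.14 ± 0.17 (adjusted p = 0.00493). Probe set 1424958_at read 1.52 and 1.29 in Cnot3KO livers, against 4.13 and 3.01 in Control livers, a difference of −2.16 ± 0.38 (adjusted p = 0.025), with both Cnot3KO values under the 20th percentile. The Cnot3KO arrays lay within 0.22 of each other on all 3, and the groups did not overlap on any of them. The call for 1457904_at held when any single array was left out. Probe set 1427482_a_at was not called without Cnot3KO replicate 1, at −1.50 (adjusted p = 0.0602), without Cnot3KO replicate 2, at −1.43 (adjusted p = 0.0584), or without Control replicate 1, at −1.21 (adjusted p = 0.0527). Probe set 1424958_at was not called without Cnot3KO replicate 1, at −2.27 (adjusted p = 0.0566), or without Cnot3KO replicate 2, at −2.05 (adjusted p = 0.0633).

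**Figure D2:**
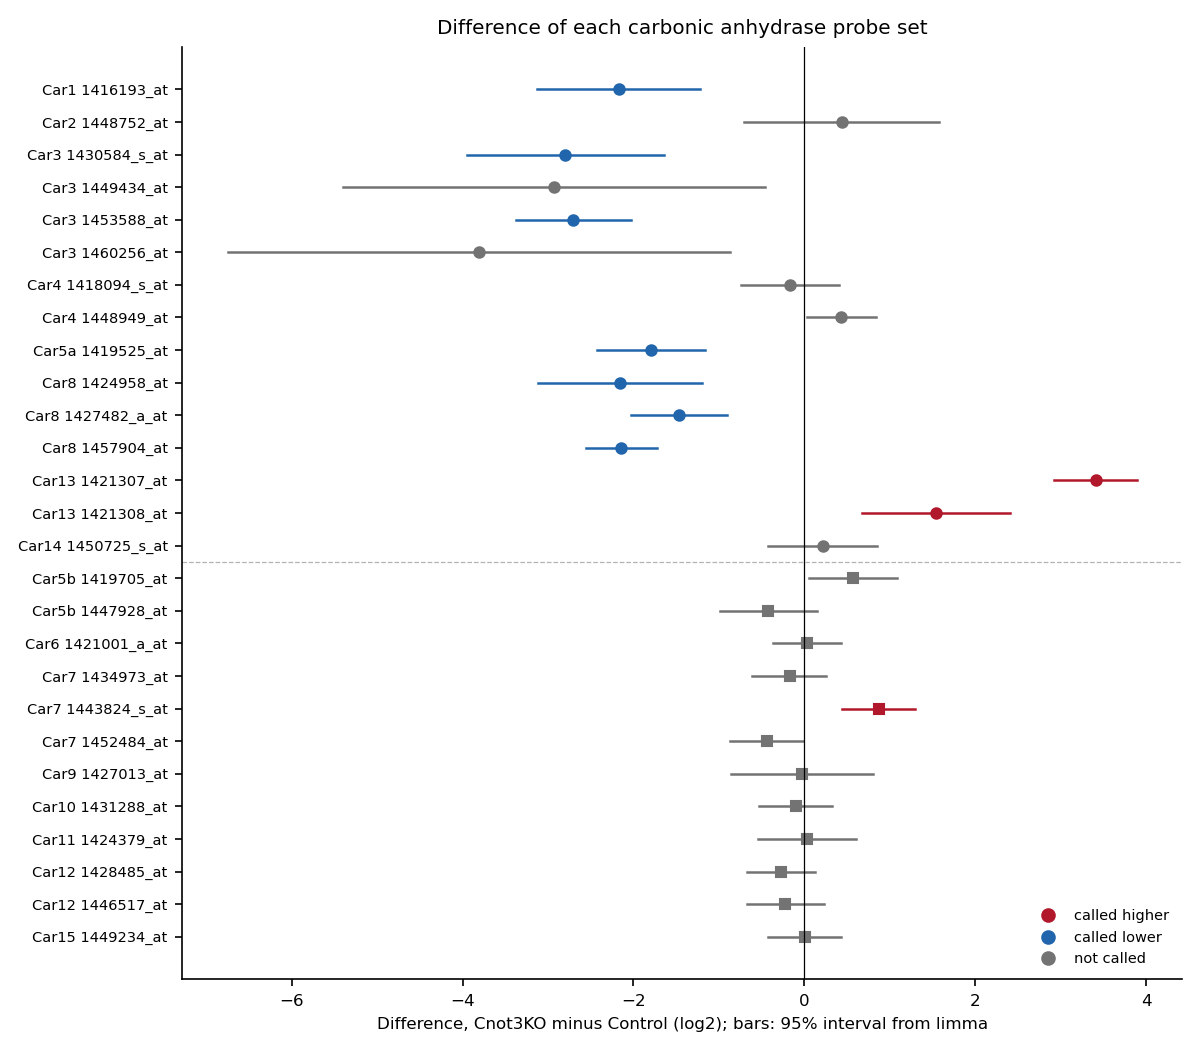
Difference between Cnot3KO and Control on the log2 scale (horizontal axis) for each carbonic anhydrase probe set that passed the filter, with 95% intervals from limma as bars. Circles above the dashed line are the 8 genes described and squares below it are the other family members, and colours give the calls. The intervals of Car3 1449434_at (−5.40 to −0.46) and 1460256_at (−6.75 to −0.87) are wide but lie below 0.

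Among the rest of the family, 1 of the 12 tested probe sets was called, in the higher direction. That count is close to the share over all probe sets tested, of which 8.48% were called higher. The 8 other genes (Car5b, Car6, Car7, Car9, Car10, Car11, Car12 and Car15) had 14 probe sets, of which 12 passed the filter. The call was for 1443824_s_at of Car7, a cytosolic enzyme, at 4.60 and 4.43 in Cnot3KO livers, against 3.72 and 3.57 in Control livers (difference 0.87 ± 0.17, adjusted p = 0.0323). The other 2 Car7 probe sets differed by −0.17 (adjusted p = 0.539) and −0.44 (adjusted p = 0.148), and the Car7 call was lost when any single array was left out. The secreted enzyme Car6 differed by 0.03, the membrane enzymes Car9, Car12 and Car15 by −0.03, −0.22 and 0.01, and the related proteins Car10 and Car11 by −0.10 and 0.03, none of them called. With 1 probe set per gene, these 8 genes had a median difference of 0.02 and a range of −0.22 to 0.87.

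**Figure D3:**
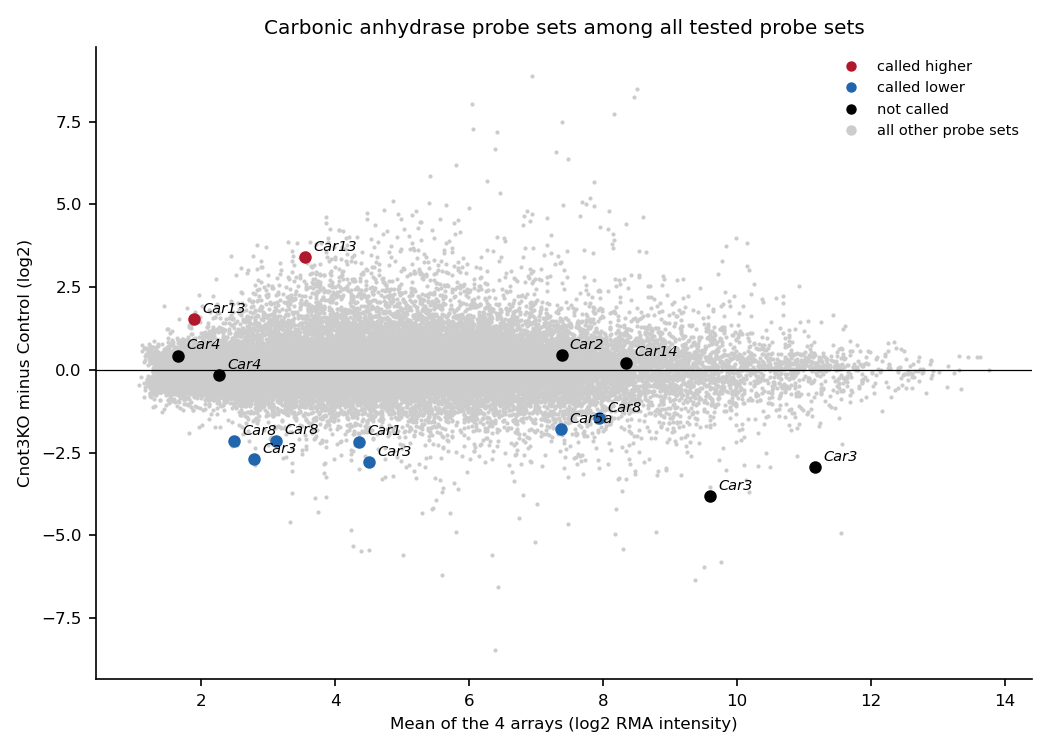
Difference between Cnot3KO and Control (vertical axis, log2) against the mean of the 4 arrays (horizontal axis, log2 RMA intensity), with all 38405 tested probe sets in grey and the 15 carbonic anhydrase probe sets coloured by call. Car13 1421307_at lies at 3.41, with Control values near the lower limit, and Car3 1460256_at lies at −3.81.

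A list for the transport of bicarbonate and protons across membranes had no called gene. Besides carriers of these ions, it includes the water channel Aqp1 and the ammonia carriers Rhag, Rhbg and Rhcg. Of its 26 genes, 22 were measured, and limma called 0 in either direction, while an unadjusted p under 0.05 was reached by 1 gene in each direction. Slc4a1, given above, had the lowest difference of the list, at −1.32 ± 0.75 (adjusted p = 0.293). Slc26a6, an anion exchanger that secretes bicarbonate, had the highest, at 5.63 and 6.01 in Cnot3KO livers and 4.94 and 5.40 in Control livers (0.65 ± 0.24, adjusted p = 0.139). The list's median difference was −0.25. Without Control replicate 2, 2 of its genes were called lower.

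Some lists of liver genes moved with the lower carbonic anhydrases on these arrays, and their part in those differences was not tested. Over all genes, 4.64% were called lower and 12.2% higher. Of 13 genes of pericentral hepatocytes, 7 were called lower and 1 higher, with a median of −1.23. Among them, the glutamate transporter Slc1a2 differed by −4.34 (adjusted p = 0.00878), the drug-metabolising enzyme Cyp1a2 by −2.72 (adjusted p = 0.00985), the glutamine synthetase Glul by −2.18 (adjusted p = 0.0292) and the R-spondin receptor Lgr5 by −1.91 (adjusted p = 0.0172). All 8 measured genes of a 10-gene list that male mouse liver expresses more were called lower, with a median of −5.52. Hsd3b5, a steroid enzyme, differed by −8.48 (adjusted p = 0.00317), Slco1a1, an organic anion transporter, by −6.58 (adjusted p = 0.00106), Ugt2b38, a glucuronosyltransferase, by −5.60 (adjusted p = 0.00212), and Elovl3, a fatty acid elongase, by −5.59 (adjusted p = 0.025). Of the genes that female liver expresses more, 4 of 9 were measured and limma called 0, with 1 lower at an unadjusted p under 0.05. Cyp2b9, a cytochrome P450, differed by −1.72 ± 1.02 (adjusted p = 0.308), with Control replicate 2 alone high at 4.79, and Cux2, a transcription factor, by −0.49 (adjusted p = 0.118). Of the hepatocyte list, 2 of 11 measured genes were called, both lower (Cyp2e1, also on the pericentral list, at −1.23, adjusted p = 0.0188, and Apob at −1.13, adjusted p = 0.0278), and the median was −0.02. The calls of Cyp1a2, Glul, Lgr5, Elovl3, Cyp2e1 and Apob were each lost in at least 1 fit that left out an array.

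Some markers of other liver cells moved with Car13 in the other direction. Over all 16758 genes, 12.2% were called higher. Of the cholangiocyte list, 5 of 8 measured genes were called higher, with a median of 2.12 and summed linear values of 1013 and 766 in Cnot3KO livers, against 69.7 and 62.9 in Control livers. Prom1, Tspan8, Epcam and Sox9, which mark biliary and progenitor cells, differed by 5.35, 4.63, 3.69 and 2.79, with adjusted p-values of 0.00569, 0.00567, 0.00962 and 0.00701. Of 12 macrophage genes, 5 were called higher, with sums of 5074 and 5348 in Cnot3KO livers, against 2715 and 2488 in Control livers. Gpnmb, Ms4a7, Cd68 and Ctss differed by 3.60, 2.44, 2.34 and 1.62 (adjusted p = 0.0153, 0.00422, 0.00727 and 0.00741). The calls of Epcam and Gpnmb were each lost in at least 1 fit that left out an array. The other 7 macrophage genes were not called: Marco (1.21), Lyz2 (0.94), Adgre1 (0.80), Clec4f and Vsig4 (0.60 each), Csf1r (0.38) and Timd4 (−0.13). None of 10 sinusoidal endothelial genes was called by limma, with 1 at an unadjusted p under 0.05, and Lyve1 and Dnase1l3 differed by 0.73 (adjusted p = 0.369) and −0.55 (adjusted p = 0.0996). The part of these cells in the Car13 difference was not tested.

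**Figure D4:**
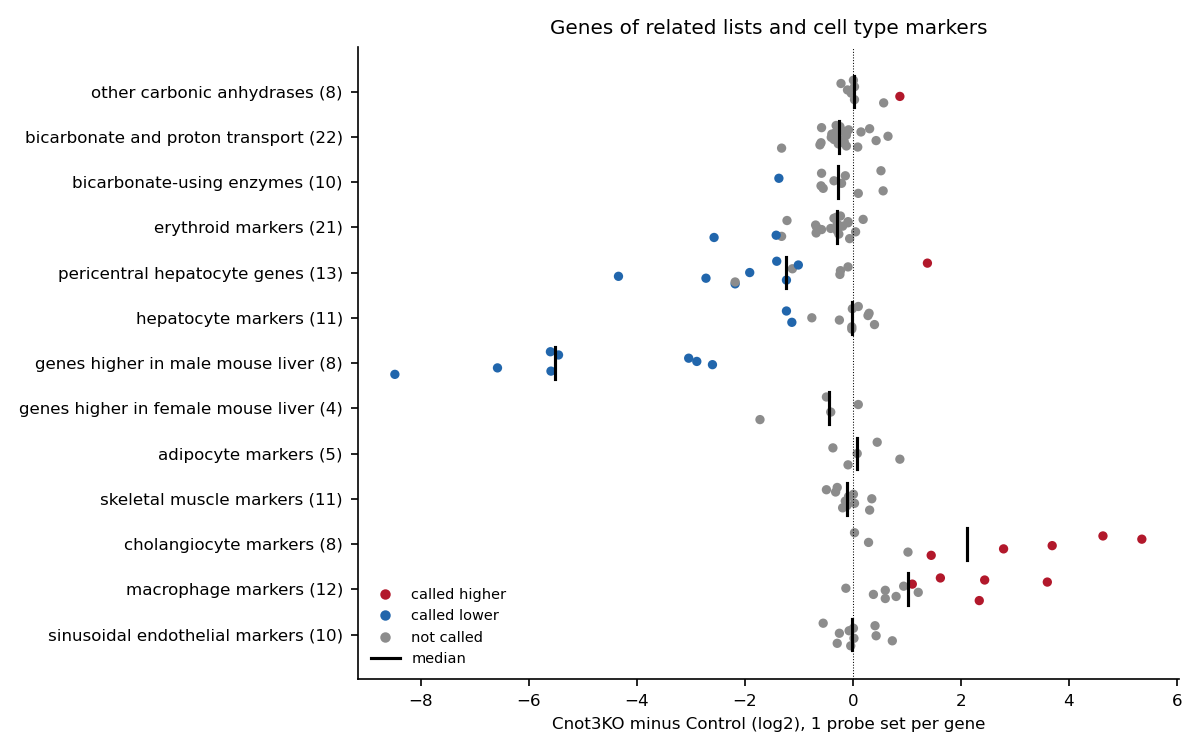
Difference between Cnot3KO and Control (horizontal axis, log2) for each measured gene of 13 lists, with 1 probe set per gene and the number of genes in parentheses. Points are genes coloured by call and black bars are medians, which run from −5.52 for the genes higher in male liver to 2.12 for the cholangiocyte markers.

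The genes whose pattern over the 4 arrays was most like that of each member whose brightest probe set was called were found by the root mean square distance of centred log2 values, among 16757 other genes. With 4 arrays in 2 groups, this likeness reflects mainly the difference between the groups. The nearest to Car5a were Asic5, an ion channel, Akr1c6, a hydroxysteroid dehydrogenase, and Ugt2a3, a glucuronosyltransferase, at distances of 0.059, 0.080 and 0.085. Akr1c6 read 10.07 and 10.66 in Cnot3KO livers, against 11.99 and 12.13 in Control livers. The nearest to Car1 were Tmem25, Cyp2c38 and Bcl6, at 0.071, 0.112 and 0.125, of which Bcl6, a transcriptional repressor, read 4.92 and 6.14 in Cnot3KO livers, against 7.96 and 7.66 in Control livers. Foxn3, Mib1 and Atp13a3 lay nearest to Car8, at 0.047, 0.050 and 0.060. For Car13 they were the mitotic kinase Aurka, the protease inhibitor Slpi and Mybl1, at 0.113, 0.120 and 0.158. Aurka read 6.03 and 6.54 in Cnot3KO livers, against 2.98 and 2.62 in Control livers.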

How the data were processed

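Total RNA of 4 livers was hybridised as biotinylated cRNA. The authors summarised the intensities with the Robust Multi-array Average (RMA), whose version is not given in the sources used here, and deposited linear intensity values, from 1.27 to 16933. Whether other arrays were normalised with these is not stated. Here log2 of the values was fitted with limma 3.58.1 (lmFit, eBayes, R 4.3.3), 2-sided, with groups from the labels, and tables and plots were made with Python 3.11.15. Probe sets above the 20th percentile of an array on at least 1 array were kept. The number of arrays limits precision (5.4 degrees of freedom, median SE 0.192). Platform annotation gave 1 gene for 34945 probe sets, several for 932 and none for 9160, and 34741 of the first kind matched a RefSeq gene by Entrez ID. A gene's level is that of its brightest kept probe set naming it alone, and a list's genes with several probe sets may disagree. Named were all probe sets of the 8 genes, all other measured carbonic anhydrases, up to 4 called genes per list by size of difference (2 if none was called), and the 3 nearest profiles of each gene whose brightest probe set was called. Other genes in the text, such as Cps1, Pcx, Adipoq, Lep, Myh4, Hba-a1 and the macrophage genes that were not called, were chosen after their values were seen. The members and lists were chosen with earlier results of these data known. The script was tested on simulated data. The alternatives were other filters, scalings and priors, the replicate block, the methods' t-test, probe sets without shared targets, and leaving out each array. RNA sequencing of the study was not used here.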

Additional observations from a re-analysis of the deposited data

How the results depend on the processing

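Against 2 probe sets called higher and 7 called lower, a second quantile normalization, centring on medians, centring on ribosomal proteins, an intensity-dependent prior and a robust prior each gave 2 and 7. With _x_at and _s_at probe sets removed they were 2 and 6. With no filter 1 was higher and 7 lower, and with means above the 50th percentile 1 was higher and 4 lower, since fewer were tested. The labels do not say that replicate numbers pair the livers, and the correlation of the replicate differences between the groups was 0.232. With the replicate block 1 was higher and 7 lower: Car1 (adjusted p = 0.0522) and Car13 1421308_at (adjusted p = 0.0741) lost their calls and Car3 1460256_at gained one (adjusted p = 0.0495). The methods' t-test gave 2 higher and 4 lower unadjusted, and 0 and 0 after Benjamini-Hochberg adjustment. The 2 higher without adjustment were not the 2 called in the main fit. They were Car13 1421307_at and Car4 1448949_at, which passed the filter only through the Cnot3KO arrays, and Car13 1421308_at dropped out. Among the lower ones, Car1, Car3 1430584_s_at and Car8 1424958_at dropped out. Leaving out 1 array gave 1 to 2 higher and 3 to 7 lower, with 3 lower without Control replicate 1 and 4 without Control replicate 2. Called genes named from the lists, with Cnot3, made 23 genes outside the 8. Some of these 23 lost their call in each fit that left out an array, most often without Control replicate 1. The genes named as nearest profiles were not part of this check. Over all 38405 probe sets, each fit without an array also called fewer in both directions than the main fit. The lone remaining array was then assumed to vary like the other group. Leaving out 1 array turned signs for Car2 (range −0.20 to 1.07, negative without Control replicate 2), Car4 1418094_s_at (−0.44 to 0.11, positive without Control replicate 2) and Car14 (−0.02 to 0.45, at −0.02 without Cnot3KO replicate 2 and −0.01 without Control replicate 1). None of these 3 was called under any setting with Benjamini-Hochberg adjustment. The cause of these changes was not tested.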
